A study of Homo sapiens with 12 samples.

Results

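The aquaporins are membrane channels for water, and 9 genes of the family were followed here, namely AQP1, AQP3, AQP4, AQP5, AQP7, AQP8, AQP9, AQP10 and AQP11. They were chosen by gene symbol in the deposited table of read counts, which holds 58735 genes, and all 9 were found there. Of the 16618 genes with a mean of at least 10 counts per library, which were tested, 3 were members, namely AQP3, AQP10 and AQP11. RNA enriched for mRNA had been sequenced from 12 samples of 2 immortalized keratinocyte lines, TIGK from human gingiva and HaCaT from human skin, both kept in the same keratinocyte medium. Each line was either left untreated (control) or exposed to 5 mM H2O2 for 3 h, with 3 samples in each of the 4 groups. The sample labels write the added compound with a different last digit from replicate to replicate, while the treatment protocol names H2O2 throughout. Each tissue was represented by a single cell line, so the site of origin and other differences between these lines cannot be told apart. Neither the labels nor the methods say whether the 3 samples of a group were separate cultures, so p-values measure the spread between these samples, which may be technical.

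Total counts per library lay between 30426400 and 49034200. The 7 keratinocyte markers examined, among them KRT5, KRT14 and TP63, were detected in every group, with a summed level from 9224 to 12130 RPKM per library, a read count scaled to gene length and library size. The summed level of 5 fibroblast markers was at most 2.49 RPKM, and those of 4 melanocyte, 4 leukocyte and 4 endothelial markers were at most 0.724, 0.064 and 0.158 RPKM.

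Classical aquaporins pass water but not glycerol, whereas aquaglyceroporins, to which AQP3, AQP7, AQP9 and AQP10 belong, also pass glycerol. Several members, including AQP3, AQP5, AQP8, AQP9 and AQP11, are known to let H2O2 through and are therefore called peroxiporins. In the epidermis AQP3 is the aquaporin known best, where it carries water, glycerol and H2O2 across the plasma membrane of keratinocytes. Transcripts are reported here, and neither channel protein nor transport was measured in these files.

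AQP3 was by far the most abundant aquaporin transcript in both lines, and it fell after H2O2 in both. Its level fell to 67.1% of the control in TIGK and to 44.9% in HaCaT. It was also lower in HaCaT than in TIGK, before and after H2O2. Neither AQP10 nor AQP11, the other members tested, passed the test for a change after H2O2 in either line.

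AQP3 (ENSG00000165272) lies on chromosome 9 from 33441154 to 33447633 on the minus strand of GRCh38. In GENCODE release 44 its canonical transcript has 6 exons, and 0 of its exonic bases are shared with another gene, so that strand does not affect its counts there. Levels are given as normalized counts, which are read counts scaled by the TMM method to the mean library size. The control TIGK libraries held 6324, 5964 and 6309 normalized counts of AQP3, and the H2O2-treated TIGK libraries 3893, 4406 and 4183. The control HaCaT libraries held 4694, 4393 and 3569, and the H2O2-treated HaCaT libraries 1828, 2215 and 1642. In each line every treated library lay below every control library.

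**Figure D1:**
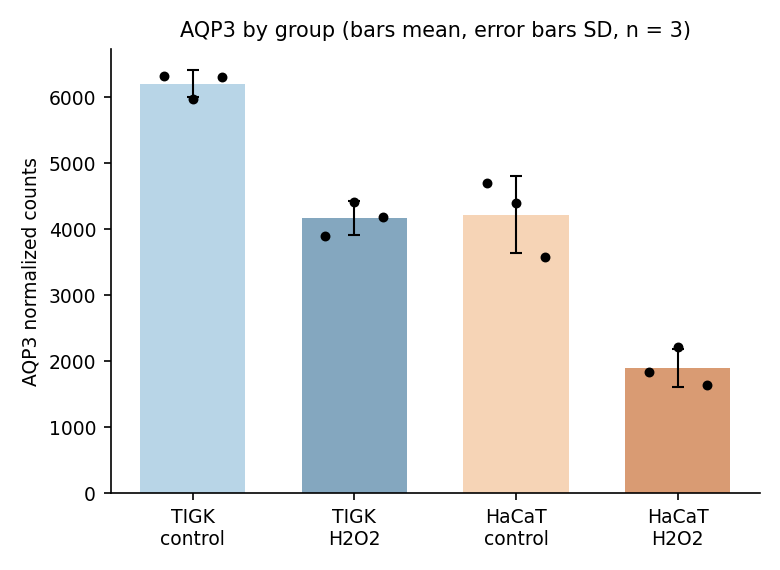
AQP3 in normalized counts (vertical axis) for the 4 groups, with bars for the mean, error bars for the SD and a dot for each of the 3 libraries. The control TIGK libraries sit highest, at 5964 to 6324, and the treated HaCaT libraries lowest, at 1642 to 2215, while treated TIGK and control HaCaT overlap.

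In TIGK the mean of AQP3 was 6199 ± 204 normalized counts before and 4161 ± 257 after H2O2 (SD, n = 3), which is -0.57 ± 0.0951 (SE) on the log2 scale (quasi-likelihood test of edgeR, Benjamini-Hochberg adjusted p = 0.000121). In HaCaT it was 4219 ± 582 before and 1895 ± 292 after (SD, n = 3), which is -1.16 ± 0.0984 (SE) on the log2 scale (edgeR adjusted p = 4.05e-08). Genes were called at an adjusted p under 0.01, the limit that the study's methods set for its gene lists. Among all genes tested, 23.2% were called after H2O2 in TIGK, 10.2% higher and 12.9% lower, and 34.1% in HaCaT, 18.9% higher and 15.2% lower. A lower log2 fold change than that of AQP3 was fitted for 13.6% of all genes tested in TIGK and for 6.58% in HaCaT. In bulk samples, fewer cells that carry a transcript and less transcript per cell cannot be told apart, and all levels are relative to the other transcripts of the library.

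Before treatment AQP3 in HaCaT stood at -0.55 ± 0.0951 (SE) relative to TIGK on the log2 scale (edgeR adjusted p = 3.85e-05). After H2O2 it stood at -1.14 ± 0.0984 (SE) relative to TIGK (edgeR adjusted p = 4.94e-09). The libraries of the lines did not overlap in either comparison. The lines differed widely, and 59.9% of all genes tested were called in untreated cells, 29.1% higher and 30.8% lower in HaCaT. After H2O2 60% were called, 30.2% higher and 29.8% lower. In the order of the 4 groups, control TIGK came first and treated HaCaT last. Treated TIGK and control HaCaT stood next to each other in the middle, and their libraries overlapped, at 3893 to 4406 against 3569 to 4694 normalized counts.

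The response of AQP3 in TIGK minus that in HaCaT was 0.58 on the log2 scale, with a standard error of 0.136 and a 95% interval from 0.296 to 0.867 (edgeR adjusted p = 0.00891). The fall was thus smaller in TIGK by this fit, close to the limit, in a test that called 5.3% of all genes, 2.32% above 0 and 2.98% below. DESeq2, which called 8.44% of all genes here, called AQP3 as well. With edgeR the call was lost on leaving out 9 of the 12 libraries in turn. The edgeR adjusted p was 0.0179, 0.0147 and 0.0112 without TIGK control replicate 1, 2 or 3, and 0.0122, 0.0164 and 0.0128 without TIGK H2O2 replicate 1, 2 or 3. It was 0.0318 and 0.0269 without HaCaT control replicate 1 or 2, and 0.0117 without HaCaT H2O2 replicate 3. The direction held in each of these fits, with differences from 0.49 to 0.71 over 17 alternatives.

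The promoter of AQP3 is shown because AQP3 was the only member tested that was called after H2O2. Those of AQP10 and AQP5 are shown because reads of AQP10 were more frequent in HaCaT and reads of AQP5 in TIGK. Reads of AQP1 were also more frequent in HaCaT, and its window is described below without its letters. RefSeq promoter entries of GRCh38.p14 were found for 8 of the 9 members, and each holds 250 bases before and 50 bases after the start of the gene. They are printed from 5′ to 3′ on the strand of the gene. AQP3 is at chr9:33447544-33447843 on the minus strand, AQP10 at chr1:154320843-154321142 on the plus strand and AQP5 at chr12:49961622-49961921 on the plus strand. Capitals mark the GC box GGGCGG and the TATA box TATAAA, each searched on either strand.
AQP3: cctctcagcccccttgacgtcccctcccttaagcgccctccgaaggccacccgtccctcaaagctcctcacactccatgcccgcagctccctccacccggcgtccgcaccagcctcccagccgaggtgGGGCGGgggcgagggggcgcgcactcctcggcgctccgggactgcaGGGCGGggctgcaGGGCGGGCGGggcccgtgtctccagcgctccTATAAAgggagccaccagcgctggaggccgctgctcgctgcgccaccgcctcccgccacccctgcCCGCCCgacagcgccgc
AQP10: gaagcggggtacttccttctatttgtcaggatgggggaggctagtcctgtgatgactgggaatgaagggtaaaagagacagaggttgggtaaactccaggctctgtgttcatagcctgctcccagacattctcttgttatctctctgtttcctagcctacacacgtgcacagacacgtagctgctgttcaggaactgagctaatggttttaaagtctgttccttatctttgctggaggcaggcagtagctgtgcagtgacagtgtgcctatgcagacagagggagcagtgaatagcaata
AQP5: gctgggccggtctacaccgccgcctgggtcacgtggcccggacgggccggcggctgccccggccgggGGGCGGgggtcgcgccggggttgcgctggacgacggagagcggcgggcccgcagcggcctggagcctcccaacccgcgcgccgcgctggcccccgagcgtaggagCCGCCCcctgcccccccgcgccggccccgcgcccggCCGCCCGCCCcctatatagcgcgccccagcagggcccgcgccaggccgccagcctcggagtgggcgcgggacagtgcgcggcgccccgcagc
The AQP3 window is 75.3% G and C and holds 5 places of the GC box, the last of which begins 34 bases after the start, and neighbouring places can overlap. Its TATA box begins at -32. The AQP5 window is 84% G and C with 4 places of the GC box and 0 of the letters TATAAA. Only these exact letters were searched, so the variant tatata, which the AQP5 window holds, was not counted or marked. The AQP10 window is 49% G and C with 0 of either. The AQP1 window, which is not printed, is 65.3% G and C with 3 places of the GC box and 1 of the TATA box, at -30. Among 35116 promoter entries of the same length, 45% hold the GC box and 11.5% the TATA box, each on either strand and anywhere in the window. The AP-1 letters TGANTCA, which 7.71% of all entries hold, and the antioxidant response element core TGACNNNGC, which 13.3% hold, were searched on both strands. They were in none of the windows of AQP3, AQP10, AQP5 and AQP1. These matches describe letters in a window and no binding was measured.

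Compared per length of transcript, AQP3 stood far above the other members in every group. Its level was 57.9 ± 1.91 RPKM in control TIGK and 38.9 ± 2.41 in treated TIGK, 39.4 ± 5.44 in control HaCaT and 17.7 ± 2.73 in treated HaCaT (SD, n = 3). AQP11 had 0.34 ± 0.127, 0.364 ± 0.099, 0.442 ± 0.0806 and 0.29 ± 0.0632 RPKM in the same order of groups (SD, n = 3). AQP3 held from 97.9% to 99% of the summed RPKM of the 9 members in the TIGK libraries and from 94.5% to 97.7% in the HaCaT libraries. In RPKM, AQP3 lay above 96% to 96.5% of all genes tested in the control TIGK libraries and above 81% to 85.7% of them in the treated HaCaT libraries.

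The genes whose log2 CPM ran most like those of AQP3 over the 12 libraries were CES2, FRMD8 and PCDH7, with Pearson r of 0.984, 0.98 and 0.976. CES2 encodes a carboxylesterase and PCDH7 a protocadherin. With the mean of each line taken out, TRPV3, ZNF654 and SEMA4B came closest, each with an r of 0.984 or 0.985. TRPV3 encodes a calcium-permeable channel of keratinocytes and went from 839 to 501 mean normalized counts in TIGK and from 239 to 60 in HaCaT. All of these points share 4 groups and their libraries, and r was above 0.95 for 56 genes over the libraries and for 98 genes within lines, so that these names stand for many genes with like values.

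AQP11, an aquaporin of the endoplasmic reticulum, was detected in all 12 libraries at a low level and did not pass the test in any comparison. It lies on chromosome 11 from 77589391 to 77610355 on the plus strand, within the span of CLNS1A on the opposite strand, and 0 of its exonic bases in GENCODE release 44 are shared. The control libraries held 39.7, 31.1 and 17.8 normalized counts in TIGK and 35.1, 46.4 and 33.6 in HaCaT. After H2O2 they held 33.6, 39 and 22.2 in TIGK and 18.9, 28 and 28.8 in HaCaT. In HaCaT every treated library lay below every control library, while in TIGK the groups overlapped. How many of all genes tested separate in this way was not counted, so this order alone shows no change. The log2 fold change in HaCaT was -0.60 with a 95% interval from -1.38 to 0.192 (edgeR adjusted p = 0.206), and in TIGK 0.09 with an interval from -0.695 to 0.871 (edgeR adjusted p = 0.879). The difference of these responses was 0.68 (95% interval from -0.426 to 1.8, edgeR adjusted p = 0.451). At these counts a change as large as that of AQP3 could neither be shown nor excluded by the intervals in TIGK and HaCaT.

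AQP10, an aquaglyceroporin, was found mainly in HaCaT. It lies on chromosome 1 from 154321090 to 154325325 on the plus strand, with 0 exonic bases shared with another gene. The control and treated TIGK libraries held 2, 2 and 6 and then 2, 6 and 4 raw counts. The control HaCaT libraries held 47, 35 and 21 and the treated ones 43, 16 and 15. Every HaCaT library lay above every TIGK library, and the first of the treated HaCaT libraries stood apart from the other two.

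In untreated cells AQP10 was higher in HaCaT by 3.16 ± 0.615 (SE) on the log2 scale (edgeR adjusted p = 0.00015), and after H2O2 by 2.83 ± 0.607 (SE, edgeR adjusted p = 0.000408). The gene passed the filter of a mean of 10 counts through HaCaT alone, where its mean raw count was 29.5 against 3.67 in TIGK. Without replicate 3 of control TIGK the difference in untreated cells was 3.87, and without replicate 1 of treated HaCaT that after H2O2 was 2.12, and both were still called. After H2O2 the log2 fold change was -0.21 in HaCaT (95% interval from -1.22 to 0.801, edgeR adjusted p = 0.758) and 0.12 in TIGK (95% interval from -1.5 to 1.75, edgeR adjusted p = 0.918).

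**Figure D2:**
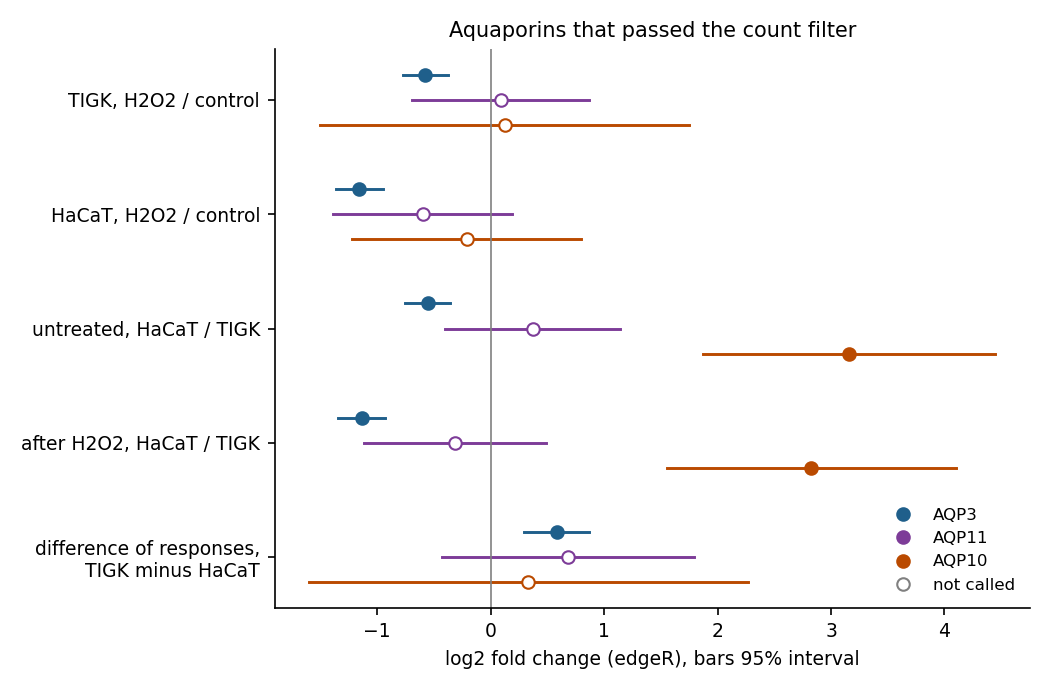
Log2 fold changes from edgeR (horizontal axis) of AQP3, AQP11 and AQP10 in the 5 comparisons, with lines for the 95% interval, filled points for genes called at an adjusted p under 0.01 and open points for the others. AQP3 lies below 0 in the first 4 comparisons with narrow intervals, AQP10 lies at 3.16 and 2.83 between the lines, and AQP11 crosses 0 throughout.

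The other 6 members had a mean below 10 raw counts per library. Of these, AQP1 and AQP5 differed between the lines in counts, in opposite directions. Their values come from an edgeR fit without the filter, which tested 33620 genes and called 31.8% of them between the untreated lines and 31.8% after H2O2, and 14.1% and 17.7% for the responses of TIGK and HaCaT. Low counts were often even numbers, as when both mates of a read pair are counted, so that intervals from counting error are too narrow here. Those intervals also pool the reads of a group and leave out the spread between its libraries.

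AQP1, a water channel best known from red blood cells, kidney and endothelium, had more reads in HaCaT. It lies on chromosome 7 from 30911694 to 30925516, and 27.9% of its exonic bases are shared with a gene on the same strand. The TIGK libraries held 2, 0 and 0 raw counts before and 4, 4 and 4 after H2O2, and the HaCaT libraries 11, 15 and 12 before and 16, 10 and 13 after. The HaCaT libraries lay above the TIGK libraries throughout. In untreated cells 38 reads in HaCaT stood against 2 in TIGK, a ratio of 17.1 after scaling, with an exact 95% counting interval from 4.42 to 146.4 (edgeR without the filter, adjusted p = 0.000649). After H2O2 the ratio was 3.83 (interval from 1.97 to 8.04), and the difference was not called (edgeR without the filter, adjusted p = 0.0672). Neither response to H2O2 was called (edgeR without the filter, adjusted p = 0.173 in TIGK and 0.978 in HaCaT).

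AQP5, a water channel of salivary and other glands that also passes H2O2, was found almost only in TIGK. It lies on chromosome 12 from 49961870 to 49965681, with 0 exonic bases shared. The TIGK libraries held 5, 8 and 21 raw counts before and 14, 11 and 15 after H2O2. The HaCaT libraries held 2, 0 and 2 before and 0, 0 and 0 after. In untreated cells 34 reads in TIGK stood against 4 in HaCaT, a ratio of 9.44 with an exact 95% counting interval from 3.37 to 36.6 (edgeR without the filter, adjusted p = 0.00633). After H2O2 the difference was called as well (edgeR without the filter, adjusted p = 3.13e-05). The mean level in TIGK was then 3.84 times that of 3 counts per library in HaCaT, which stood for the limit that a count of 0 allows. This ratio leaves out the counting error in TIGK, and it would be smaller if both mates were counted. Its responses to H2O2 were not called (edgeR without the filter, adjusted p = 1 in TIGK and 0.19 in HaCaT).

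**Figure D3:**
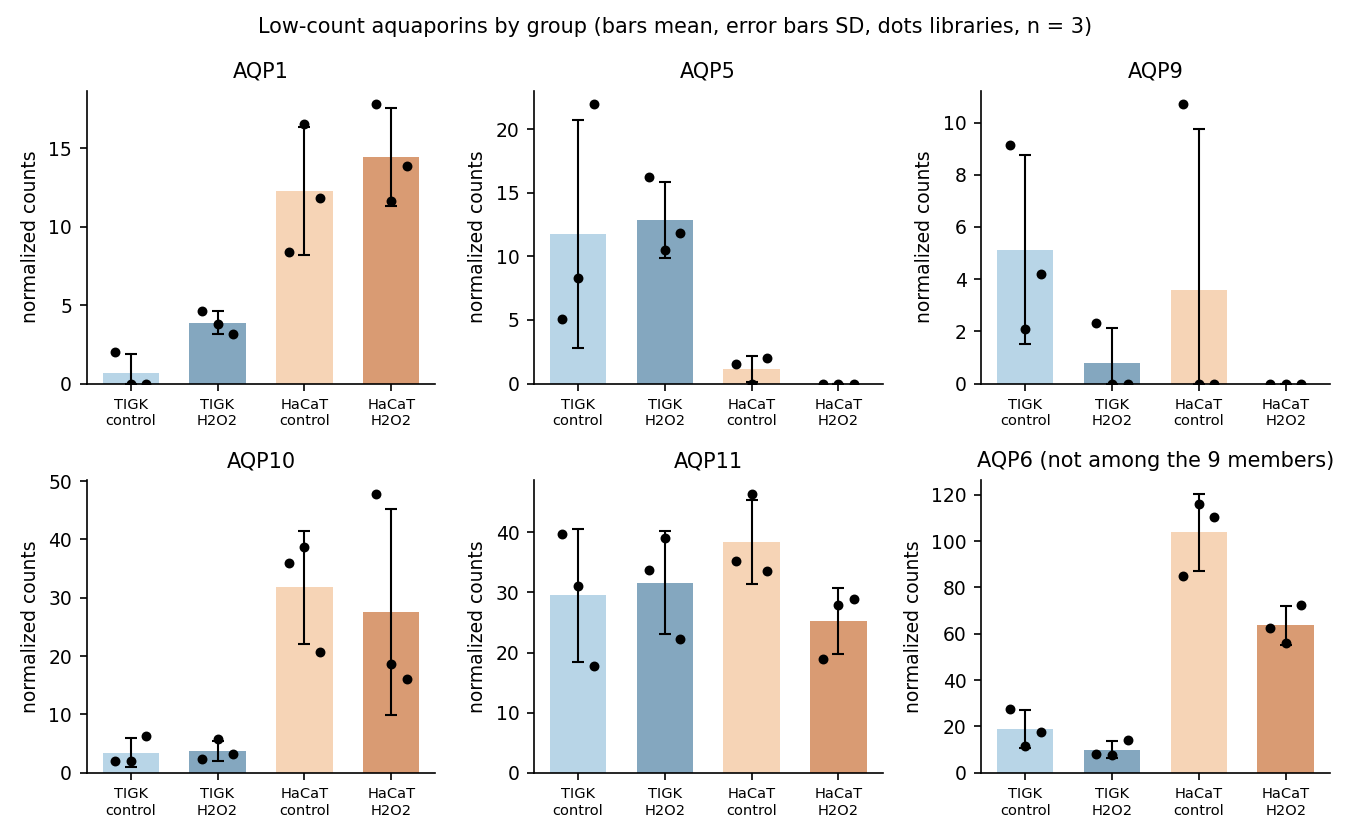
Normalized counts (vertical axes, each panel with its own scale) of AQP1, AQP5, AQP9, AQP10, AQP11 and the further family gene AQP6 in the 4 groups, with bars for the mean, error bars for the SD and dots for the 3 libraries. AQP1, AQP10 and AQP6 sit higher in HaCaT and AQP5 in TIGK, and AQP9 in HaCaT rests on a single library.

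The remaining 4 members were nearly without reads in these cells. AQP9, an aquaglyceroporin best known from liver and leukocytes, had 9, 2 and 4 raw counts in control TIGK and 2, 0 and 0 after H2O2. In HaCaT it had 14, 0 and 0 before and 0 in every treated library, so that all reads of that line came from control replicate 1. Of its exonic bases 14.3% are shared with genes on the opposite strand. AQP7, the aquaglyceroporin of adipocytes, had 14 reads over all libraries and at most 4 in any of them, and its near-identical pseudogene copies make even these uncertain. It also shares 9.54% of its exonic bases with a gene on the opposite strand. AQP8, a peroxiporin also found in mitochondria, had 10 reads with at most 3 per library, and AQP4, the main aquaporin of brain astrocytes, 7 reads with at most 3. Where a library held 0 counts, a level of up to 0.0612 to 0.0986 CPM (counts scaled to library size) remained possible for its depth, by counting error only. No difference of these 4 genes was detectable at this depth, and in the fit without the filter the edgeR adjusted p of their responses lay at 0.0522 or above.

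A further 5 genes of the family are not among the 9 members. Of these AQP6, an anion-permeable aquaporin of intracellular vesicles, was detected in all libraries, whereas AQP12A and AQP12B had 0 reads, AQP2 had 6 and MIP, the aquaporin of the lens, had 8. AQP6 had 84.8, 116 and 111 normalized counts in control HaCaT and 62.3, 56 and 72.6 after H2O2. In TIGK it had 27.5, 11.4 and 17.8 before and 8.12, 7.61 and 14.3 after. It was higher in HaCaT by 2.45 on the log2 scale before and by 2.62 after H2O2 (edgeR adjusted p = 2.49e-06 and 3.22e-06). Its log2 fold changes after H2O2, -0.88 in TIGK and -0.70 in HaCaT, were not called (edgeR adjusted p = 0.097 and 0.0617). AQP6 shares 2.67% of its exonic bases with RACGAP1 on the opposite strand.

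In all, 1 of the 3 members tested was called lower after H2O2 in each line, AQP3 in both cases, and 0 were called higher, where 23.2% of all genes tested were called in TIGK and 34.1% in HaCaT. Between the lines AQP3 was lower in HaCaT and AQP10 higher, before as well as after H2O2, where 59.9% and 60% of all genes tested were called, and AQP10 had passed the filter through HaCaT alone. With 3 members the median log2 fold change was that of 1 gene, AQP11, at 0.09 in TIGK and -0.60 in HaCaT. The medians of all genes tested were 0.01 and 0.04. AQP11 was not called in either line, so its values do not describe the family. The 2 responses share no library with each other, whereas each shares libraries with the comparisons between the lines.

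Genes that handle glycerol were examined because AQP3 and AQP10 pass it, in a list of 14 genes that were all tested. In TIGK 1 of them was called higher and 1 lower after H2O2, and in HaCaT 4 were called higher and 1 lower, against 10.2% higher and 12.9% lower in TIGK and 18.9% higher and 15.2% lower in HaCaT among all genes tested. PLD1, a phospholipase D, rose by 1.01 on the log2 scale in TIGK and by 0.93 in HaCaT (edgeR adjusted p = 7.17e-05 and 8.41e-05). GPAT3, a glycerol-3-phosphate acyltransferase, had log2 fold changes of -1.85 and -1.15 (edgeR adjusted p = 7.6e-13 and 5.16e-10). PLD2, the phospholipase D known to associate with AQP3 in keratinocytes, was not called in either line. GK, glycerol kinase, rose in HaCaT from 5.74 ± 4.86 to 19.3 ± 5.16 normalized counts (SD, n = 3, edgeR adjusted p = 0.00448). This call was lost without HaCaT control replicate 2 or 3 (edgeR, adjusted p = 0.0155 and 0.019) or replicate 2 or 3 of treated HaCaT (edgeR, adjusted p = 0.0198 and 0.0174), when the HaCaT groups were fitted alone (edgeR, adjusted p = 0.0475) and on halved counts (edgeR, adjusted p = 0.0119). Without replicate 1 of control HaCaT the log2 fold change of GK was 2.57 in place of 1.63. LIPE, hormone-sensitive lipase, singled out after its values were seen, was also among the 4 genes called higher in HaCaT (edgeR adjusted p = 0.00964). It passed the limit in 2 of 18 alternatives and was lost on leaving out any of the 12 libraries, with adjusted p by edgeR up to 0.0531. With GK and LIPE both lost, as in the fits without the 4 HaCaT libraries named and with the HaCaT groups alone, 3 genes of the list were called in HaCaT in place of 5.

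Of 22 genes of cell volume and osmolyte regulation 21 were tested, and the remaining gene SLC6A12 had at most 4 counts in any library. In TIGK 4 were called higher and 9 lower after H2O2, and in HaCaT 4 higher and 8 lower. Among all genes tested 10.2% were called higher and 12.9% lower in TIGK, and 18.9% and 15.2% in HaCaT. The median log2 fold changes of the list were -0.24 and -0.19, against 0.01 and 0.04 for all genes tested. SGK1, a kinase that acts on ion transport, rose by 1.44 in TIGK and by 0.76 in HaCaT on the log2 scale (edgeR adjusted p = 2.86e-10 and 1.04e-06). CLNS1A rose by 0.37 in TIGK and by 0.40 in HaCaT (edgeR adjusted p = 0.00017 and 7.39e-05). LRRC8D, a subunit of the volume-regulated anion channel, rose by 0.33 in TIGK and by 0.49 in HaCaT (edgeR adjusted p = 0.00021 and 1.72e-06). Another subunit, LRRC8C, had log2 fold changes of -1.31 in TIGK and -0.54 in HaCaT (edgeR adjusted p = 8.15e-11 and 3.99e-06). SLC5A3, the myo-inositol transporter, had -0.93 and -0.42 (edgeR adjusted p = 1.93e-07 and 0.000774). NFAT5, the transcription factor of the osmotic response, had -0.61 in TIGK and -1.17 in HaCaT (edgeR adjusted p = 0.000193 and 1.06e-07). The kinase OXSR1 had -0.57 and -0.85 (edgeR adjusted p = 7.35e-07 and 3.11e-09).

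**Figure D4:**
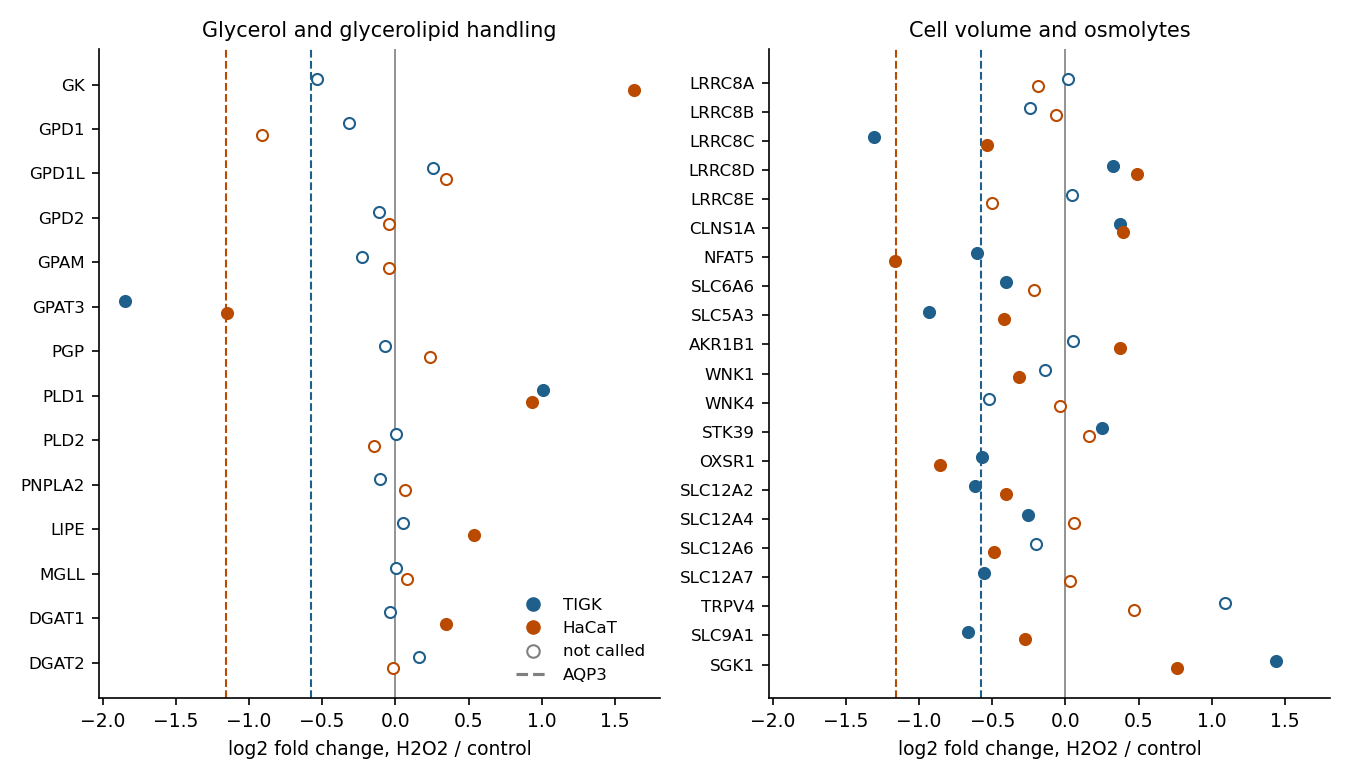
Log2 fold changes after H2O2 (horizontal axis) of the glycerol list (left) and the volume list (right) in TIGK and HaCaT, with filled points for genes called at an edgeR adjusted p under 0.01, open points for the others and dashed lines at AQP3. AQP3 at -0.57 in TIGK and -1.16 in HaCaT lies to the left of most genes of both lists.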

How the data were processed

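RNA from 12 samples were sequenced in read pairs. The authors deposited raw read counts per gene on GRCh38, without normalization. Their methods name HISAT2 2.0.5, StringTie 1.3.3b and featureCounts 1.5.0-p3, while the submitters' processing notes also list HISAT2 2.0.0 and the labels speak of FPKM. The annotation release and the strand setting are not given in the sources used here. Values from 1 to 10 were even in 60.5% of cases, so both mates of a pair may have been counted. Tables of the authors' own fold changes and p-values were not used. There were 0 unused sample columns and 0 lines without a gene.

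Genes with a mean of at least 10 counts were tested with edgeR 4.0.16 (TMM, quasi-likelihood, 1 mean per group, all libraries) in R 4.3.3, and DESeq2 1.42.0 was an alternative. The code of the fits was run on simulated counts, with large changes set in genes of higher counts only. Low-count members such as AQP1, AQP5 and AQP10, and a difference as small as that of AQP3, were not covered. RPKM used the deposited gene lengths, log2 CPM a prior count of 2, and figures matplotlib 3.10.9. The study used DESeq2. The 9 members and the gene lists were chosen with earlier results of these data known. Named were all members and, in each list and comparison, up to 2 called genes per direction with the largest change and no overlap between groups.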

Additional observations from a re-analysis of the deposited data

Results flagged for a closer look

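The H2O2 responses of TIGK and HaCaT differed by the test of the difference itself (edgeR, adjusted p under 0.01) for AQP3 and for 5 genes of the accompanying lists, 2 of the 14 for glycerol and 3 of the 21 tested for cell volume, while 5.3% of all genes tested were called. In the volume list 5 genes were called by DESeq2, which called 8.44% of all genes, and 5 by edgeR without HaCaT H2O2 replicate 1. In that list 6 were called by edgeR either without the filter on low counts or without HaCaT H2O2 replicate 3. In the glycerol list 1 was called wherever the call of GK was lost. The response of TIGK minus that of HaCaT was 0.58 on the log2 scale for AQP3, with the loss of this call in 9 fits that each left out a library given above. It was -2.16 for GK (edgeR adjusted p = 0.00507), whose level in control HaCaT rested on 14, 5 and 1 reads, and -3.11 without HaCaT control replicate 1. It was -0.70 for GPAT3, -0.77 for LRRC8C and -0.59 for the potassium-chloride cotransporter SLC12A7, and 0.68 for SGK1 (edgeR adjusted p = 0.000148, 3.72e-05, 0.00241 and 0.000921). The call of SLC12A7 was lost without TIGK H2O2 replicate 2 or 3 or HaCaT control replicate 1 (edgeR adjusted p = 0.0139, 0.0125 and 0.0105). The call of GK was lost by edgeR without replicate 1 or 2 of control TIGK (adjusted p = 0.0104 and 0.0142), TIGK H2O2 replicate 2 or 3 (0.0141 and 0.0152), HaCaT control replicate 2 or 3 (0.0168 and 0.012) or HaCaT H2O2 replicate 2 or 3 (0.0213 and 0.0119).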

How the results depend on the processing

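The falls of AQP3 in both lines and its lower level in HaCaT kept their direction and passed the limit in all 18 alternatives to each. Its log2 fold changes after H2O2 lay from -0.59 to -0.53 in TIGK and from -1.28 to -1.06 in HaCaT. AQP10 between the lines also passed the limit in all 18 alternatives, with 2.89 to 3.87 in untreated cells and 2.12 to 3.19 after H2O2. AQP10 had passed the filter through HaCaT alone, with 2 to 6 raw counts per TIGK library, so these fits add no independent support. Without a filter on low counts 4 members differed between the untreated lines in place of 2, by construction, as AQP1 and AQP5 were then tested. The difference of responses called 1 member, AQP3, and 0 with a replicate block (edgeR adjusted p = 0.0115), and from 0 to 1 when single libraries were left out, while DESeq2 and the fit on halved counts, which was chosen after seeing the data, kept it. The 18 correlations of same-numbered samples between groups lay between -0.121 and 0.0257, 0 of them above 0.1. From 3 samples per group they cannot settle whether the replicate numbers of the labels pair the samples. The block changed no other call of a member. On the TPM scale, which rescales each library, AQP3 had means of 227, 154, 137 and 61.7, AQP10 of 0.165, 0.178, 1.33 and 1.17, and AQP11 of 1.32, 1.44, 1.53 and 1.01 in control TIGK, treated TIGK, control HaCaT and treated HaCaT, and the order of genes within a library cannot differ from that in RPKM. Depth limits AQP11, AQP10 and the 6 members below the filter, for which changes smaller than the intervals given cannot be seen.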

Other observations

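Beside the aquaporins, several genes of the accompanying lists differed between the lines. Of the glycerol list 7 genes were higher in HaCaT and 3 lower in untreated cells, and the same numbers were called after H2O2, while 59.9% and 60% of all genes tested were called in these comparisons. GK was lower in HaCaT by 77.4 times before and by 17.3 times after H2O2, on 1 to 21 reads per HaCaT library. Without replicate 1 of control HaCaT the log2 fold change of GK in untreated cells was -7.21 in place of -6.27. DGAT2, an enzyme of triglyceride synthesis, was lower by 12.4 and 14.1 times. The edgeR adjusted p was 4.62e-13 and 3.45e-11 for GK, and 9.6e-15 and 7.07e-15 for DGAT2. The lipases MGLL and LIPE were higher in HaCaT, by 2.51 and 2.06 times before and by 2.64 and 2.87 times after H2O2 (edgeR adjusted p = 1.58e-10, 2.07e-05, 7.14e-11 and 1.37e-07).

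Of the volume list 8 genes were higher in HaCaT and 10 lower in untreated cells, and 7 and 9 after H2O2. Among all genes tested 29.1% were higher and 30.8% lower in untreated cells, and 30.2% and 29.8% after H2O2. TRPV4, a calcium channel that opens on cell swelling, was higher in HaCaT, with 233 ± 40 against 12.8 ± 6.48 normalized counts in untreated cells (SD, n = 3, edgeR adjusted p = 5.98e-10) and a log2 fold change of 3.55 after H2O2 (edgeR adjusted p = 1.03e-09). Among subunits of the volume-regulated anion channel, LRRC8B was lower in HaCaT by 2.79 and 2.62 on the log2 scale before and after H2O2, with edgeR adjusted p = 3.75e-14 and 1.36e-13. LRRC8E was higher by 2.05 before and by 1.51 after (edgeR adjusted p = 2.94e-05 and 0.000752), and LRRC8C by 1.34 and 2.11 (edgeR adjusted p = 1.71e-12 and 4.75e-15). LRRC8A, by 1.84 and 1.64, and LRRC8D, by 0.49 and 0.66, were also called higher in both states and are named after their values were seen. The kinase WNK4 had log2 fold changes of HaCaT over TIGK of -2.08 and -1.59 (edgeR adjusted p = 0.000332 and 0.00417), and the latter was not called without TIGK H2O2 replicate 3 or HaCaT H2O2 replicate 3 (edgeR adjusted p = 0.0302 and 0.0231).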
